A study of Mus musculus with 7 samples.

Results

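SST interneurons with Npy transcripts were taken as nuclei of mouse visual cortex that held at least 3 unique molecular identifiers (UMIs, single counted transcripts) of Sst and at least 1 of Npy. They held at most 1 UMI of Vip and none of Slc17a7. The rule found 417 nuclei among 32335 kept nuclei, each with more than 200 non-viral UMIs, or 1.29% (exact 95% binomial interval 1.17 to 1.42). These are called Npy SST nuclei here. They were set against 329 non-Npy SST nuclei, which passed the same rule with no Npy UMI, and against the 31918 other kept nuclei. All 3 sets came from 1 sample of male C57BL/6J mice of 6 to 10 weeks. Their primary visual cortex was injected with the SST PESCA AAV9 library, a pool of viruses in which gene regulatory elements (GREs) stand before a minimal promoter and a barcoded GFP. Nuclei were encapsulated by inDrops, a droplet method, into 10 libraries, which the file names place in 2 sets of 5.

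Somatostatin interneurons arise in the medial ganglionic eminence and release GABA onto the dendrites of pyramidal cells. Many are Martinotti cells with axons that climb to the cortical surface. Part of the class also makes neuropeptide Y, a peptide that is stored in dense core vesicles and lowers transmitter release through presynaptic receptors. Neuropeptide Y is made as well by neurogliaform interneurons, which lack Sst, and by a rare long-range projecting somatostatin type that carries Chodl and Nos1.

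The rule used Sst, Npy, Vip and Slc17a7, so the levels of these genes are a description of how nuclei were chosen. Neither nuclei nor libraries are replicates of a condition, and no test or p-value is given. Levels are UMIs of a gene per 10000 non-viral UMIs summed over a group, and ratios carry exact 95% intervals that cover counting error only. A gene was called where its ratio was at least 2 or at most 0.5 over all libraries, and lay on the same side of 1 in both library sets. Within the SST class a gene needed at least 30 UMIs over both groups. Against other nuclei it needed 30 in Npy SST nuclei, or 30 in the others once scaled to the total of Npy SST nuclei.

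Before the values, 7 sequences are shown: the promoters of both genes that define the nuclei and of 2 genes that set them apart, and 3 GREs that the results return to. Promoters are from RefSeq on GRCm38.p6, 250 bases before the start to 50 after it, and GREs are the central 300 bases on the plus strand of GRCm38. Capitals mark matches, on either strand, to the cyclic AMP response element TGACGTCA, the homeodomain core TAATTA or the AP-1 motif TGANTCA. The Sst promoter, chr16:23890795-23891094 on the minus strand, holds TGACGTCA from base 203 of the 300 shown.
Sst: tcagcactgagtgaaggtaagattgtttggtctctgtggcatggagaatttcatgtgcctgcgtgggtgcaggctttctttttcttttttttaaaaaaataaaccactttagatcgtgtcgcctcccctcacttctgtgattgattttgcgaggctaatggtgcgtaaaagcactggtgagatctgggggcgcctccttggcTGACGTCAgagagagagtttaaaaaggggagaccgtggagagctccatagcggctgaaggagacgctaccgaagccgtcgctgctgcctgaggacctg
The Npy promoter, chr6:49822460-49822759 on the plus strand, holds no match.
Npy: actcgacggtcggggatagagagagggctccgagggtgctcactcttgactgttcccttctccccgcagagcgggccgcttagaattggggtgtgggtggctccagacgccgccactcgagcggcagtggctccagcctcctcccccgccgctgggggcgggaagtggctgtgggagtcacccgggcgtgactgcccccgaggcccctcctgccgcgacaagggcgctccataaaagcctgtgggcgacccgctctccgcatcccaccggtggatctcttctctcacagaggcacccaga
The promoter of Cort, chr4:149126714-149127013 on the minus strand, holds TAATTA.
Cort: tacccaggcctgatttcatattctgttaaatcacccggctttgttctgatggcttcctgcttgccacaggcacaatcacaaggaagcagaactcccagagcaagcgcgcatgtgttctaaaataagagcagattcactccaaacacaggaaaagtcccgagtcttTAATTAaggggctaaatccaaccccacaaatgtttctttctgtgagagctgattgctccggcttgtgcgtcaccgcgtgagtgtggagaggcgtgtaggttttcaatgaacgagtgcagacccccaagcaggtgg
The promoter of Crhbp, chr13:95444782-95445081 on the minus strand, holds no match.
Crhbp: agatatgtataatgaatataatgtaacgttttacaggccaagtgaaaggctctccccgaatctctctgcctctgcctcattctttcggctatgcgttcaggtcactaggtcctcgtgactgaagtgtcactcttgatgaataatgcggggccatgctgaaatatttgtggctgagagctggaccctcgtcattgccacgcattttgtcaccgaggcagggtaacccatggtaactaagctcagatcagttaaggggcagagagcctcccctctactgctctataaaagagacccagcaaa
GRE80, chr4:94392091-94392390, lies in an intron of the lincRNA gene Gm12648, 164 kb from the nearest protein-coding start, that of Gm10306.
GRE80: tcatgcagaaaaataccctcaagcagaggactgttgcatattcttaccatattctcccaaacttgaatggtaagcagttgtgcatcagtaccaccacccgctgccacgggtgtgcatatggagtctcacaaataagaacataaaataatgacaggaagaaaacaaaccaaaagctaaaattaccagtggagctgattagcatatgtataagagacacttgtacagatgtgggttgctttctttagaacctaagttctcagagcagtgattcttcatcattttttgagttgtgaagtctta
GRE22, chr2:69084462-69084761, lies in an intron of Cers6, 51.2 kb from the start of Nostrin.
GRE22: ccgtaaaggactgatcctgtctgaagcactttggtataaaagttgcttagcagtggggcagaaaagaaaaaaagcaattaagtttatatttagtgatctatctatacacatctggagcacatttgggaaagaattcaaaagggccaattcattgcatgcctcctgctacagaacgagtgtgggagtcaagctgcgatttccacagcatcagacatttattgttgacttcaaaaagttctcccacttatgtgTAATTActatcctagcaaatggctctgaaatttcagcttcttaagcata
GRE19, chr2:45924259-45924558, is intergenic, with the start of Zeb2 807 kb away.
GRE19: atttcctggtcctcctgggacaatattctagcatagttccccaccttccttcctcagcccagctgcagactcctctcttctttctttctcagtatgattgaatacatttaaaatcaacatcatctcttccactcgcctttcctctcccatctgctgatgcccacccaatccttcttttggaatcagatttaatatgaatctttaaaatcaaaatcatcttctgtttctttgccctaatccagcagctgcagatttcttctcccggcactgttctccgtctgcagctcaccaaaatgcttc
Among 32851 mouse promoters of this length, 1.79% hold TGACGTCA, 5.29% TAATTA and 7.81% TGANTCA. Of the central 300 bases of the 287 GREs, 0 hold TGACGTCA, 12.2% hold TAATTA and 22.6% hold TGANTCA. A match or its absence describes letters in these windows only.

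Libraries held between 2457 and 3629 kept nuclei. Cell barcodes recurred between libraries. The 8 pairs of neighbouring libraries of a set shared between 339 and 821 barcodes (median 525.5), the 12 other pairs within a set between 83 and 210, and the 25 pairs between sets between 51 and 95. Among barcodes shared by neighbouring libraries, 84 were an Npy SST nucleus in at least 1 library and 32 were so in both, while none of the 40 shared between sets was so in both. Of the 84, 22 were an Npy SST nucleus in 1 library and a non-Npy SST nucleus in the other. Counting each barcode once per set left 27166 kept nuclei, 370 Npy SST nuclei and 267 non-Npy SST nuclei. Values without the repeats stand beside the results. Doublets were not removed.

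Of the kept nuclei, 793 had 3 or more Sst UMIs, and 442 of these had Npy. Of the 442, 4 were left out for Vip and 21 for Slc17a7. In the 10 libraries the Npy SST nuclei numbered 24 at the lowest, 43 at the median and 54 at the highest, against 21, 34 and 42 non-Npy SST nuclei. Npy was thus found in 55.9% of the 746 SST nuclei (exact interval 52.3 to 59.5). The share by library ran from 43.6% to 63.8%, with a median of 56.5%, and was 56.9% in library set 1 and 54.7% in set 2. Npy SST nuclei held 66.5% of all Sst UMIs and 29.3% of all Npy UMIs of kept nuclei.

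Npy was spread unevenly over the 417 nuclei. The median nucleus had 3 Npy UMIs, 107 nuclei had a single UMI and 49 had 10 or more, up to 62. The 42 nuclei with the most Npy held 38.4% of its UMIs. In 15 nuclei Npy outnumbered Sst. Sst had a median of 15 UMIs in Npy SST nuclei and 7 in non-Npy SST nuclei. By library the level of Npy ran from 27.1 through a median of 38.5 to 76.8 per 10000, and that of Sst from 142 through 193 to 258 per 10000.

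**Figure D1:**
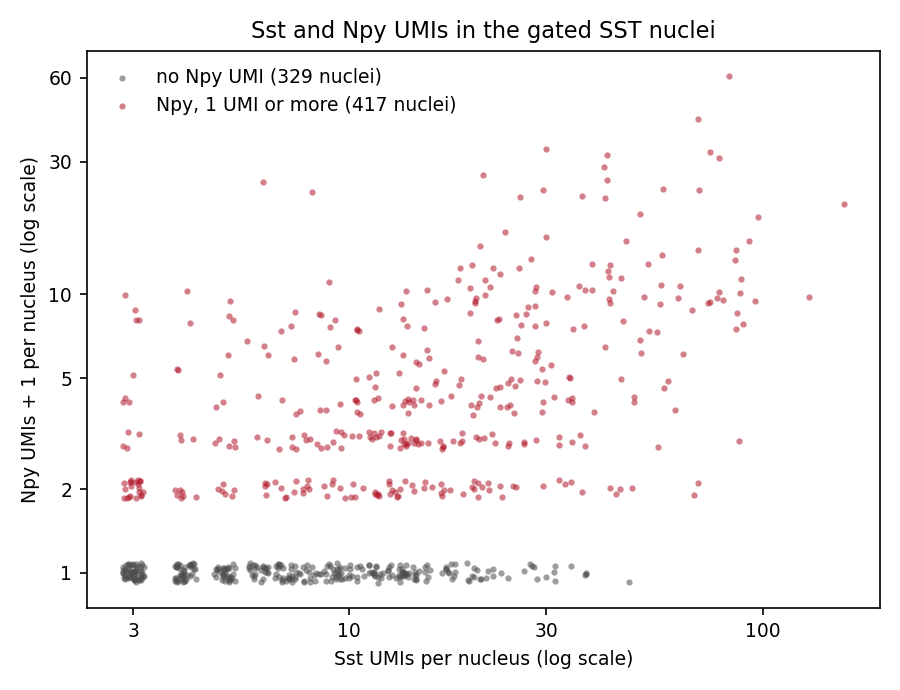
Sst and Npy UMIs of each of the 746 SST nuclei; each point is a nucleus, moved by a small random shift, the x axis is the Sst count and the y axis the Npy count plus 1, both on log scales. Npy SST nuclei have a median of 15 Sst UMIs and non-Npy SST nuclei a median of 7.

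The share of nuclei with Npy was higher at each larger Sst count, apart from a dip at 4 to 5 UMIs. Among nuclei that met the conditions on Vip and Slc17a7 it was 3.00% of nuclei with no Sst, 18.0% with 2 Sst UMIs, 36.3% of 91 with 3, 29.9% of 107 with 4 to 5, 42.2% with 6 to 10, 60.4% with 11 to 20 and 88.9% with 21 or more. The share moved with depth too. It was 39.6% of SST nuclei with 201 to 500 UMIs, 51.0% with 501 to 1000 and 68.0% above 1000. Npy SST nuclei had a median of 1035 UMIs, against 720 in non-Npy SST nuclei and 707 in other nuclei. A nucleus with no Npy UMI may have had Npy transcripts that were not counted, and how far depth set the division was not tested. As a background, 1.36% of 1845 excitatory nuclei (Slc17a7 at least 2, no Gad1 or Gad2, median 1238 UMIs) had an Npy UMI, with an exact interval of 0.879 to 1.99%, and 3.20% had a Sst UMI.

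At the Sst edge of the rule, the 33 nuclei with exactly 3 Sst UMIs and Npy had Grin3a, an NMDA receptor subunit abundant in the SST class, at 6.78 per 10000, and the 29 just outside with 2 Sst UMIs had it at 1.92. Gad1, which makes GABA, stood at 6.35 and 9.12 per 10000 in the same nuclei. Elfn1 stood at 0.847 just inside and 1.44 just outside, and Crhbp at 0.847 and 3.36 per 10000. Levels at this Sst edge rest on few UMIs and carry no interval, so no direction is drawn from them. At the Npy edge, the 107 nuclei with 1 Npy UMI had Crhbp at 2.94 and Cort at 1.02 per 10000, and the 329 with none had 1.29 and 0.238.

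The label was checked against markers the rule did not use. Gad1 or Gad2, the enzymes of GABA synthesis, had a UMI in 318 of the 417 nuclei (76.3%), and in 186 of 329 non-Npy SST nuclei (56.5%). Against all other nuclei, 233 of 4540 genes tested were called higher (5.13%) and 475 lower (10.5%). All 8 tested genes of GABA neuron identity were called higher, with a median log2 ratio of 3.09 beside −0.04 over all genes tested. A gene could enter through the group where it was high, so such counts of tested genes are partly set by the minimum. Over all 12 genes of that list, tested or not, the summed level was 56.5 per 10000 in Npy SST nuclei and 9.90 in other nuclei. Of 15 tested genes of the SST class, 12 were called higher and none lower. Lhx6, the medial ganglionic eminence regulator, was 16.2-fold higher, and of 6 tested genes on its list 4 were called higher. Of 14 tested excitatory markers 12 were called lower and none higher. Other nuclei did not have to lack Slc17a7, so the rule favours lower excitatory markers in Npy SST nuclei. All 7 tested astrocyte and all 6 tested oligodendrocyte markers were called lower. Of 4 tested PV interneuron markers 2 were called higher and none lower, and of 2 VIP markers 1 was higher and 1 lower. Without repeated barcodes the counts over all genes were 222 and 453.

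The 15 highest ratios against other nuclei include genes of the SST class at large: Pdyn, Grin3a and Elfn1 differed little between the SST groups, with ratios of 0.898, 0.916 and 1.27. Crhbp, which binds and sequesters corticotropin-releasing hormone, led at 61.7-fold (52.1 to 73.1). The opioid peptide precursor Pdyn was 35.6-fold higher, Fibcd1 33.0-fold, and Elfn1, a synaptic organiser at inputs to SST cells, 28.9-fold. Cort, whose product cortistatin resembles somatostatin, was 28.8-fold higher. The Wnt antagonist Sfrp2 followed at 28.5-fold and Hpse, a heparan sulfate-cleaving enzyme, at 27.1-fold. Next came the protocadherin Pcdh18 at 25.8-fold, Moxd1 at 25.1, the repressor Prdm1 at 22.8 and Grin3a at 22.2. The oxytocin receptor Oxtr stood at 21.3-fold, Fam150b, a ligand of the ALK receptor, at 20.7, the kappa opioid receptor Oprk1 at 16.6 and Lhx6 at 16.2. Each was higher in 9 or 10 of the 10 libraries.

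The other comparison, within the SST class, asks what accompanies Npy among cells that share Sst. Of 5662 genes tested, 119 were called higher in Npy SST nuclei (2.10%) and 147 lower (2.60%). With at least 60 UMIs a gene, 3182 were tested, of which 28 (0.880%) were higher and 31 (0.974%) lower. Most calls therefore rested on few counts. Without repeated barcodes 121 were higher and 141 lower, of which 81 and 115 were among the calls above, and the ratios of all 57 genes followed in detail stayed within their counting intervals.

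**Figure D2:**
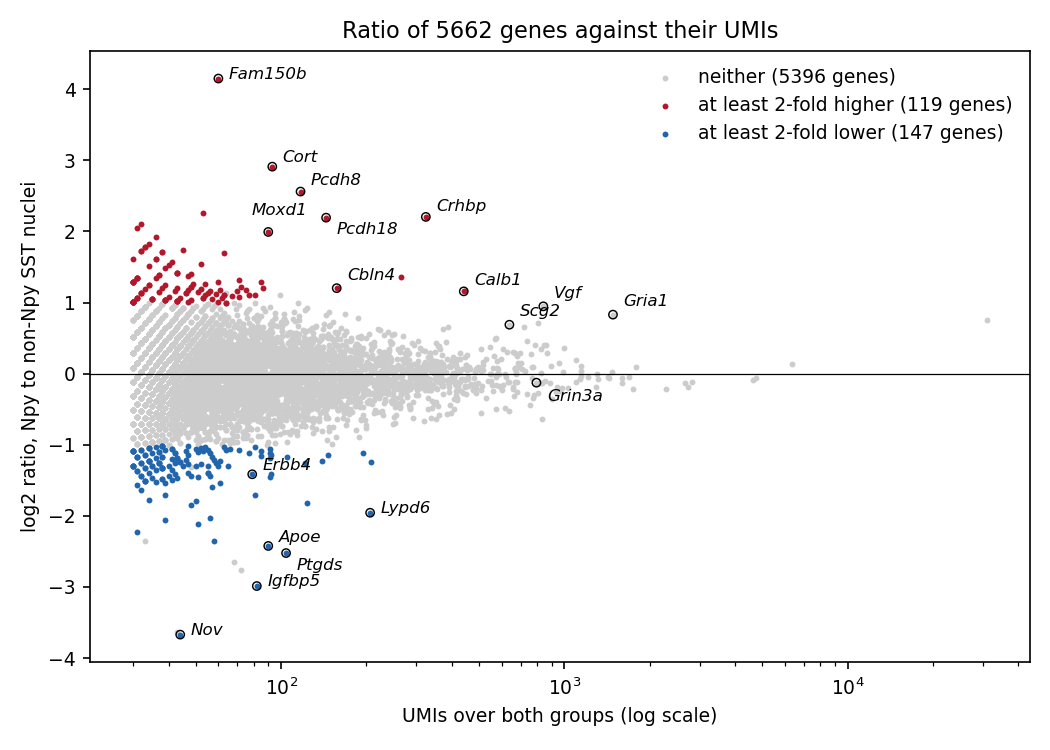
Ratio of Npy SST to non-Npy SST nuclei (log2) for each of 5662 genes against its UMIs; each point is a gene, the x axis is on a log scale, coloured points are called and named genes are ringed. There are 119 genes called higher and 147 lower, and the widest ratios lie at the fewest UMIs.

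Peptide genes differed most clearly at Cort and Crhbp. Crhbp had 286 UMIs in 142 Npy SST nuclei and 38 UMIs in 28 non-Npy SST nuclei. By library its level was 3.73 at the lowest, 6.00 at the median and 9.45 at the highest in Npy SST nuclei, against 0, 1.32 and 4.27 per 10000. It was higher in 9 libraries and lower in 1, with the highest reference library overlapping the lowest levels of the other group. The ratio of the pooled levels, 5.95 and 1.29 per 10000, was 4.61 (3.28 to 6.65), and 4.45 without repeated barcodes.

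Cort had 86 UMIs in Npy SST nuclei and 7 in non-Npy SST nuclei. Its level by library was 0.778 at the lowest, 1.48 at the median and 3.69 at the highest, against 0, 0 and 1.07 per 10000. It was higher in 10 of 10 libraries, and 7.53-fold over the pool (3.50 to 19.3), or 9.66-fold without repeated barcodes. It was 3.65-fold with Sst of at least 10 and 12.4-fold without the first library of set 2. Of 14 tested neuropeptide precursors, Cort alone was called, with a list median of 0.13 on the log2 scale. Among all genes tested, 2.10% were called higher and 2.60% lower. Pdyn had a ratio of 0.898 (0.708 to 1.14) and Penk, the enkephalin precursor, 1.18 (0.735 to 1.94). Crh, the hormone that Crhbp binds, had 24 UMIs against 32 and a ratio of 0.459 (0.259 to 0.805), and was not called, since its ratio was 0.169 in set 1 and 1.27 in set 2. Without the first library of set 2, Crh had 15 UMIs against 31, ratios of 0.300 over the pool and 0.705 in set 2, and was called lower, whereas leaving out any of the other libraries gave no call. Tac1, the tachykinin precursor, had 25 UMIs against 4 and was under the minimum for a call. Nppc, the precursor of C-type natriuretic peptide, was not on that list and is named here after its values were seen. It had 32 UMIs against 6, was called higher at 3.27-fold (1.35 to 9.56), and stayed called with each library left out in turn. With counts thinned to equal depth, Nppc was found in only 7 Npy SST nuclei, or 1.99% (0.803 to 4.05). It was then found in 3 non-Npy SST nuclei, or 1.30% (0.270 to 3.76), and in 1.19% of excitatory nuclei. These intervals overlap, so no difference in Nppc is drawn at equal depth.

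Of 16 tested genes of peptide processing and dense core vesicles none was called, with a median log2 ratio of 0.12. Over all genes tested 2.10% were called higher and 2.60% lower, so no call in a list this short says little about it. Vgf, a secretory granule peptide precursor, stood at 11.8, 12.7 and 16.3 per 10000 in the lowest, median and highest library of Npy SST nuclei, against 4.03, 6.45 and 11.9. Its ratio was 1.93 (1.64 to 2.27), and that of the granin Scg2 was 1.61 (1.35 to 1.93). Both were higher in 10 of 10 libraries, by less than the 2-fold of a call. Receptors of the peptide itself were sparse: Npy1r had 9 UMIs against 3, and Npy2r, the presynaptic receptor, 10 against 0, at least 2.04-fold higher against a floor of 3 counts. Only 4 of 28 peptide receptor genes could be tested, and none was called.

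Among genes of SST subtypes, 14 were tested, 4 of them called higher (Calb1, Cbln4, Moxd1 and Etv1) and 2 lower (Nr2f2 and Kit), with a median log2 ratio of 0.04. Over all genes tested, 2.10% were called higher and 2.60% lower. Calb1 encodes the calcium buffer calbindin, and its level by library was 4.24, 6.22 and 12.6 per 10000 at the lowest, median and highest, against 1.26, 3.40 and 5.65. It was higher in 10 of 10 libraries, by 2.23-fold (1.77 to 2.83), with some overlap between the groups. Moxd1, a copper monooxygenase relative, was 3.98-fold higher (2.16 to 8.04) with 78 UMIs against 12. Cbln4, a secreted synaptic organiser, was 2.30-fold higher (1.56 to 3.49), and both were higher in 9 of 10 libraries. Without repeated barcodes Calb1 stood at 2.30 and Moxd1 at 4.13, and with Sst of at least 10 at 1.82 and 6.23.

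**Figure D3:**
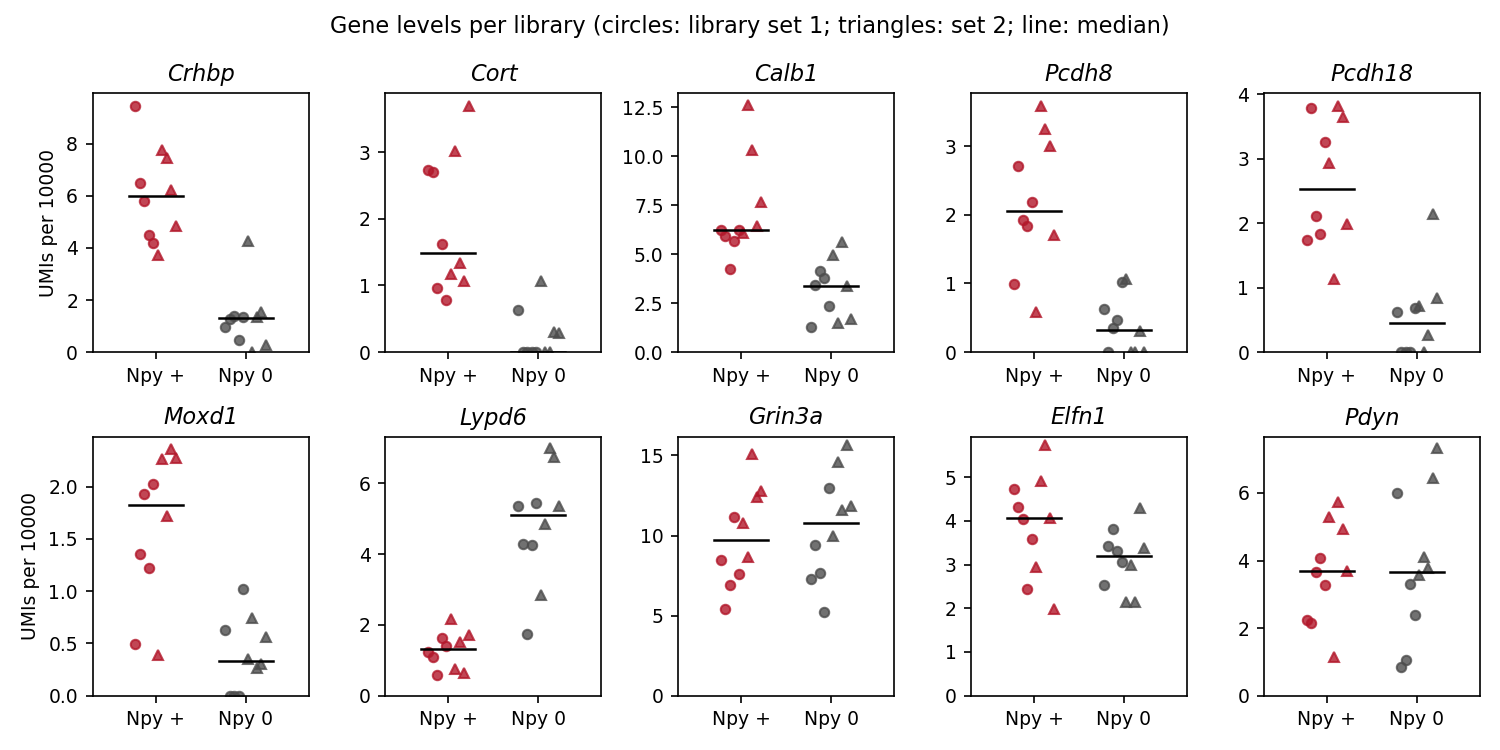
Level of lead genes (UMIs per 10000 non-viral UMIs) in each of the 10 libraries, for Npy SST and non-Npy SST nuclei; each point is a library, circles are set 1, triangles set 2, and lines are medians. Cort and Calb1 are higher in 10 of 10 libraries, Crhbp in 9, and Lypd6 is lower in 10 of 10.

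Further genes among the 15 highest ratios were Fam150b, Pcdh8, Pcdh18 and Fibcd1. Fam150b had 58 UMIs in 35 Npy SST nuclei and 2 UMIs in a single non-Npy SST nucleus, a ratio of 17.8 (4.70 to 150), or 5.60 with each nucleus given equal weight. The protocadherins Pcdh8 and Pcdh18 were 5.90-fold (3.17 to 12.2) and 4.58-fold (2.75 to 8.10) higher, and Fibcd1 4.80-fold (2.05 to 13.7), or 8.21 without the third library of set 2. Over the alternative settings, Pcdh8 ranged from 3.72 to 9.92 and Pcdh18 from 3.22 to 8.59. Pcdh18 and Fam150b were higher in 10 of 10 libraries. With Crhbp and Cort they make 6 of the 15 highest, and the other 9 were Efnb2, an ephrin ligand, at 4.29-fold, Moxd1 as above, Zfp74, the metalloprotease Adamts18, Tsc22d4, Ctdsp2, the translation factor Eif3b, Tiparp and 2700062C07Rik. Apart from Moxd1 each of these had between 27 and 38 UMIs in Npy SST nuclei and 4 to 7 in non-Npy SST nuclei, and Ctdsp2 stood at 0.980 with nuclei thinned to 500 UMIs.

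Most defining genes of the SST class did not separate the groups. Of 17 tested, Cort was called higher and Lypd6 and Kcnmb2 lower, with a median log2 ratio of 0.04. The shares over all genes tested were 2.10% higher and 2.60% lower. Grin3a stood at 9.92 and 10.8 per 10000, a ratio of 0.916 (0.793 to 1.06), higher in 5 libraries and lower in 5. Elfn1 had 1.27 (0.980 to 1.64). Gad1 and Gad2 were somewhat higher at 1.32 (1.14 to 1.54) and 1.63 (1.40 to 1.92), and none of 9 tested genes of GABA identity was called. With Sst of at least 10 the direction of Gad1 turned, at 0.968, and Gad2 stood at 1.60. The transcription factor Maf had a ratio of 1.57 (1.26 to 1.98), and Satb1, a chromatin organiser that SST cells need to mature, 0.709 (0.600 to 0.839).

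Lypd6 was the clearest gene in the opposite direction. It encodes a membrane-bound protein that modulates nicotinic acetylcholine receptors. Its level by library was 0.578, 1.32 and 2.16 per 10000 at the lowest, median and highest in Npy SST nuclei, against 1.74, 5.11 and 6.99 in non-Npy SST nuclei. It was lower in 10 of 10 libraries, with 61 UMIs in 42 nuclei against 145 in 78 and a ratio of 0.258 (0.188 to 0.350), or 0.270 without repeated barcodes. The libraries of the groups overlapped only at the edge. Lypd6 was 6.55-fold higher in Npy SST nuclei than in all other nuclei.

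Ion channels and receptors showed a mixed pattern, to be read beside the 2.10% of all genes tested that were called higher and the 2.60% called lower. Of 28 potassium channel genes tested, Kcnma1, the BK channel pore, at 2.33 (1.30 to 4.43) and Kcnk2, a leak channel, at 2.16 (1.25 to 3.95) were called higher. Kcnb2, Kcnc4, Kcnip4, Kcnmb2, Kcnmb4 and Kcnq5 were called lower, and the list median was −0.29 on the log2 scale. Kcnmb4, a BK auxiliary subunit, had 44 UMIs against 61 and a ratio of 0.442 (0.293 to 0.662). The AMPA receptor subunit Gria1 was 1.78-fold higher (1.58 to 2.00) in 10 of 10 libraries, and of 15 glutamate receptor genes only Grid1 was called, lower. None of 10 GABA receptor genes was called, with a median log2 ratio of −0.02. Of 41 adhesion and guidance genes Erbb4, the neuregulin receptor, at 0.375 (0.230 to 0.603) and Sema6a at 0.451 (0.290 to 0.695) were called, both lower. Of 21 sodium and calcium channel genes Cacna2d1 and Fgf13 were called, both lower, and of 7 monoamine and acetylcholine receptor genes Adra1b was called, higher.

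For the long-range projecting type few transcripts were counted. Chodl had 15 UMIs in 9 Npy SST nuclei and 2 UMIs in 2 non-Npy SST nuclei, and Nos1, the nitric oxide synthase of that type, had 0 UMIs in both. Of the 15, 9 lay in the first library of set 1. At this depth such counts set no limit on the share of cells of that type. The 9 nuclei with Chodl had a median of 24 Npy UMIs, against 3 in the 408 without it. Npy stood at 211 per 10000 in them and Crhbp at 25.8, against 40.7 and 5.51. These 9 nuclei were singled out after the values were seen.

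Neurogliaform cells, the other main source of neuropeptide Y in cortex, were compared through 284 nuclei with at least 3 Npy UMIs and no Sst, a set chosen after the values were seen. Those nuclei had Npy at 131 per 10000. The summed neurogliaform markers stood at 47.8 per 10000 there, at 3.83 in Npy SST nuclei and at 6.08 in non-Npy SST nuclei. Kit, a receptor tyrosine kinase of that type, stood at 28.2 per 10000 there and at 0.333 and 0.883 in the SST groups, and Lamp5 had 41 UMIs in Npy SST nuclei against 26, a ratio of 0.966.

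Glial transcripts moved with the division. Of 6 tested astrocyte markers 4 were called lower in Npy SST nuclei and of 5 oligodendrocyte markers 3, with median log2 ratios of −1.26 and −1.15, and none was called higher. Over all genes tested 2.60% were called lower, with a median log2 ratio of −0.04. By library the summed astrocyte markers ranged from 2.55 to 11.8 per 10000 in Npy SST nuclei and from 2.99 to 44.9 in non-Npy SST nuclei, and the oligodendrocyte markers from 0.755 to 11.4 and from 0.306 to 20.6. All 10 astrocyte and all 8 oligodendrocyte markers had a UMI in Npy SST nuclei. Markers of microglia, vessels and lymphocytes had too few UMIs to test, and 2 of 9, 5 of 9 and 6 of 9 of them were at 0 in Npy SST nuclei. The excitatory markers had a median of −0.52, with 1 of 7 called lower.

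Of the 15 lowest ratios, several rested on single nuclei. Nov, a secreted matricellular protein, had 5 UMIs against 39, a ratio of 0.0785 (0.0242 to 0.199), but 66.7% of the 39 lay in 1 nucleus. In Apoe, the main astrocyte lipoprotein, 1 nucleus held 49.3% of the non-Npy SST UMIs, in the gap junction gene Gja1 42.5%, in Fn1 38.6%, in Igfbp5 38.2%, in Slc26a2 36.4% and in Ptgds 28.4%. Others among the 15 were Fam19a1, Parm1, the transcription factors Nr2f2 and Ets2, Lypd6, Kcnb2 and Arhgap17. Leaving out the 80 Npy SST and 76 non-Npy SST nuclei with 2 or more glial or vascular UMIs, a filter chosen after the data were seen, moved Apoe from 0.186 to 0.628, Fn1 from 0.195 to 0.670, Igfbp5 from 0.126 to 0.479 and Nov to 0.372. Slc26a2 moved to 0.670 and Ptgds to 0.391, whereas Gja1 went only from 0.245 to 0.279 and Nr2f2 from 0.241 to 0.170. The filter itself selects on glial UMIs, so it acts on glial genes directly. Lypd6 then stood at 0.253, Crhbp at 5.21 and Cort at 5.49, and 116 genes were called higher and 114 lower, of which 48 and 46 were among the calls before. Without the first library of set 1, Slc26a2 stood at 0.597, Gja1 at 0.530, Fn1 at 0.511 and Nov at 0.249. Without the fifth library of set 1, Nov stood at 0.0172 and Gja1 at 0.155. With Sst of at least 10 UMIs Slc26a2 stood at 1.29 and Ptgds at 1.77. The part of glial RNA in the other ratios was not tested.

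Levels followed the Npy count in different ways when SST nuclei were divided into 0, 1, 2 to 4, 5 to 9, and 10 or more Npy UMIs (329, 107, 161, 100 and 49 nuclei). Crhbp went from 1.29 through 2.94, 5.06 and 5.07 to 13.2 per 10000, and Cort from 0.238 through 1.02, 1.51 and 1.88 to 3.21. Calb1 went from 3.23 through 4.06, 7.35 and 7.74 to 9.87. These 3 genes were thus lowest without Npy and highest at 10 or more Npy UMIs. Between 2 to 4 and 5 to 9 UMIs Crhbp was level, and the counting intervals of these bins overlapped for all 3 genes. Cbln4 and Pdyn were lowest at 10 or more Npy UMIs, at 0.641 and 0.898 per 10000, and highest at a single UMI, at 3.55 and 5.28. Lypd6 was at 4.92 without Npy, at 0.812 with a single Npy UMI, and at 1.21, 1.01 and 2.44 in the larger bins. Its level was thus lowest at a single UMI and did not go lower with more Npy. Grin3a lay between 7.18 and 11.7 in all 5 bins. Sst itself went from 102 to 294, and the median depth from 720 to 1390 UMIs. The bins use the Npy count that chose the nuclei, and these values are a description.

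**Figure D4:**
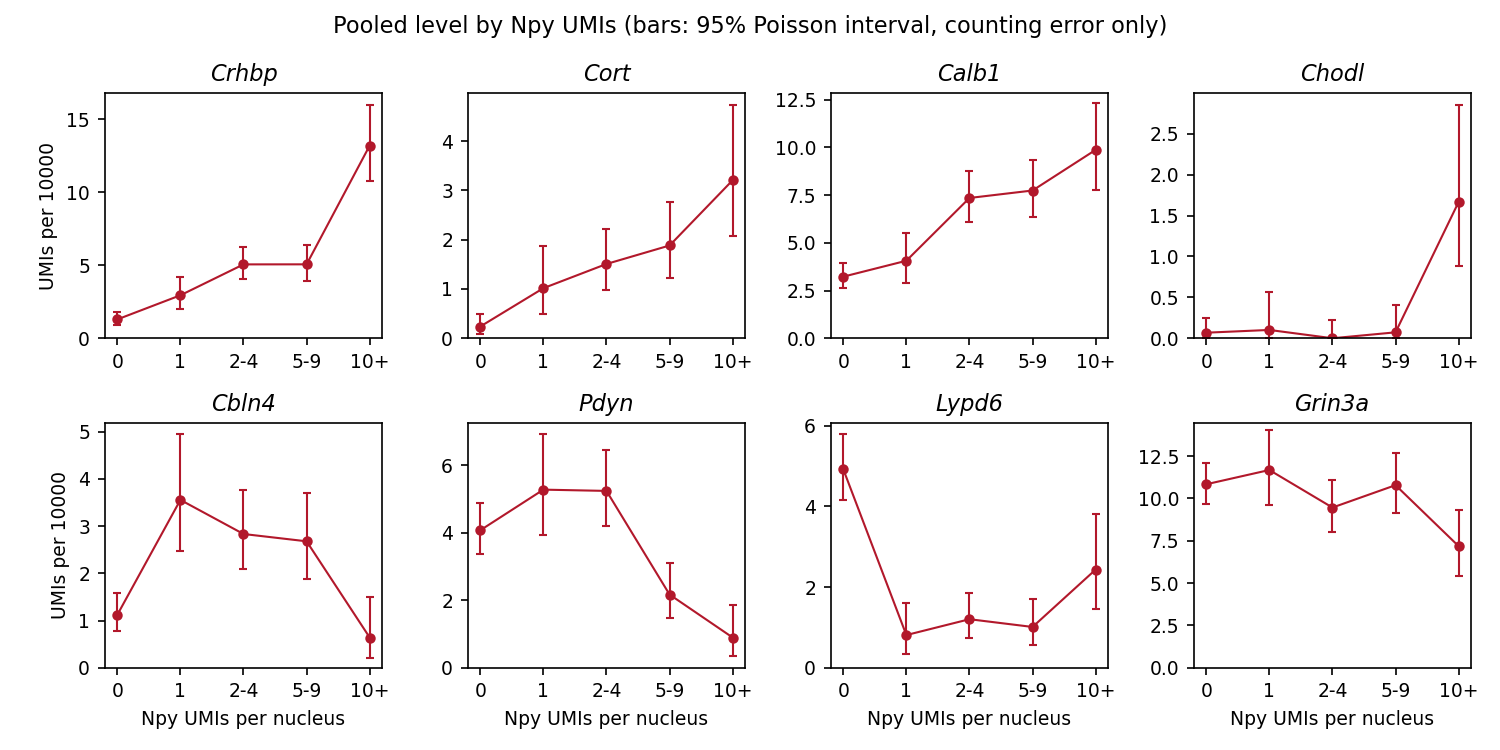
Levels (UMIs per 10000 non-viral UMIs) of genes in SST nuclei with 0, 1, 2 to 4, 5 to 9, and 10 or more Npy UMIs, with 95% Poisson intervals for counting error. Crhbp goes from 1.29 to 13.2, whereas Lypd6 is highest, at 4.92, in the nuclei without Npy.

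The differences in Crhbp, Cort and Lypd6 were also present with counts thinned to equal depth, in groups still divided by their full Npy counts. With each nucleus thinned to 500 non-viral UMIs, 352 Npy SST and 230 non-Npy SST nuclei remained, after 65 and 99 shallower nuclei were left out. Npy itself was then found in 73.6% of the thinned Npy SST nuclei, so the division still rested on the full depth. Crhbp was then found in 21.9% and 3.91% of nuclei, against 34.1% and 8.51% before thinning, and in 0.119% of 1679 excitatory nuclei thinned likewise. Cort was found in 9.09% and 1.30%, and in 0.0596% of the excitatory nuclei. Lypd6 was found in 5.40% and 18.3%, and in 0.417% of the excitatory nuclei, while Grin3a was found in 35.2% and 33.5%. Within depth bins of 201 to 500, 501 to 1000 and over 1000 UMIs, Crhbp stood at 5.61, 6.13 and 5.92 per 10000 in Npy SST nuclei and at 2.10, 0.782 and 1.40 in the others. Within bins of Sst the difference in Crhbp was not even. With 3 to 5 Sst UMIs Crhbp stood at 1.31 and 1.38 per 10000 (65 and 133 nuclei), and with 6 to 10 at 5.09 and 0.480 (70 and 96). With 11 to 20 it stood at 4.87 and 1.78 (122 and 80 nuclei), and with 21 or more at 7.67 and 1.95 (160 and only 20). In the same bins Calb1 stood at 3.27, 7.25, 6.85 and 8.13 per 10000, against 2.77, 2.04, 3.80 and 7.04. Cort stood at 1.75, 1.54, 1.52 and 2.01, against 0.0988, 0, 0.356 and 1.17.

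Viral transcripts, which a PCR step enriched, were counted apart from the cellular ones. Npy SST nuclei had a mean of 63.5 viral UMIs and a median of 24, with 96.6% holding at least 1. Non-Npy SST nuclei had a mean of 28.8 and a median of 10, and other nuclei a mean of 15.1 and a median of 4. At least 1 viral UMI was held by 93.6% of non-Npy SST nuclei and 86.0% of other nuclei. The ratio of means was 2.21 to non-Npy SST nuclei and 4.20 to other nuclei. The 10% of Npy SST nuclei with the most viral UMIs held 52.2% of them, so that the means rest on few nuclei. Of 7 tested genes for AAV entry into cells none was called between the SST groups, with a median log2 ratio of 0.24. Over all genes tested 2.10% were called higher and 2.60% lower, so no call among 7 genes says nothing particular about them.

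By library the ratio to other nuclei ran from 1.83 to 7.10 and was above 1 in 10 of 10 libraries. The ratio to non-Npy SST nuclei ran from 0.868 through a median of 2.54 to 3.84. It was below 1 only in the second library of set 2, where non-Npy SST nuclei averaged 78.4 viral UMIs. Depth moved with it: per 1000 non-viral UMIs the groups had 55.1, 32.1 and 17.2 viral UMIs, and at 500 UMIs a nucleus the ratio to non-Npy SST nuclei was 1.66. It was 2.14 without repeated barcodes, and 1.67, 1.84, 1.54 and 2.27 among nuclei with 3 to 5, 6 to 10, 11 to 20 and 21 or more Sst UMIs.

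**Figure D5:**
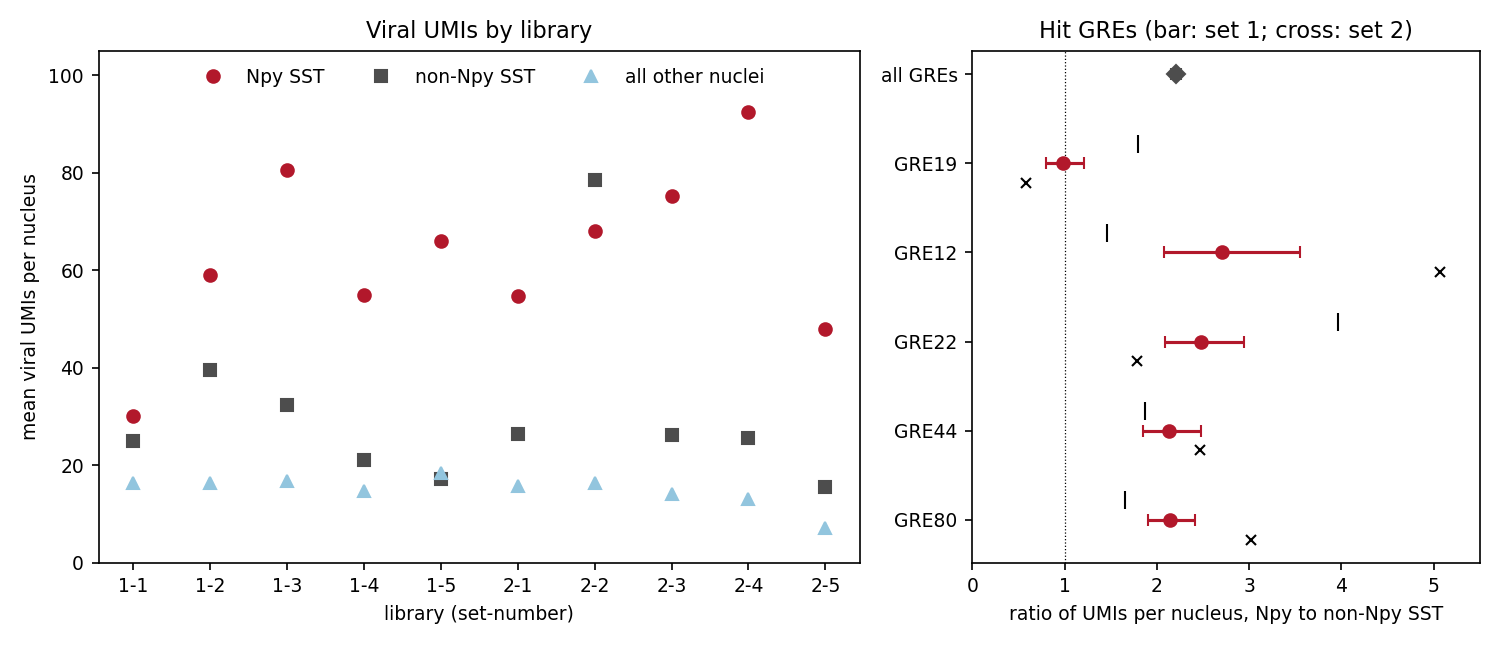
Left, mean viral UMIs per nucleus in each library for Npy SST, non-Npy SST and other nuclei. Right, ratio of UMIs per nucleus of Npy SST to non-Npy SST nuclei for 5 GREs and all GREs, with 95% counting intervals and the value of set 1 (bar) and set 2 (cross); GRE19 at 0.981 lies lowest, and at 2.02 without library 2-2.

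The library holds 287 GREs, each paired with 3 barcodes. Over all GREs, Npy SST nuclei had 26119 UMIs and non-Npy SST nuclei 9345, a ratio per nucleus of 2.21 (2.15 to 2.26). Of 165 GREs with at least 30 UMIs, 146 had a ratio above 1, 107 (64.8%) a ratio of 2 or more and 5 a ratio of 0.5 or less, with a median of 2.49. An element could pass this minimum through Npy SST nuclei alone, which favours ratios above 1, and elements below it were not counted. The elements were counted in the same nuclei, so these counts are a description.

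GRE12, GRE19, GRE22, GRE44 and GRE80 were selected by the study on these same nuclei as hits for the SST class, so their level against other nuclei is no independent evidence. It was 12.3-fold for GRE80, 12.7 for GRE22, 11.8 for GRE12, 9.61 for GRE44 and 7.37 for GRE19. Within the SST class, GRE80, the lincRNA intron element shown above, had 1050 UMIs against 387, a ratio of 2.14 (1.90 to 2.41), higher in 8 of 10 libraries. GRE22, the Cers6 intron element, had a ratio of 2.48 (2.09 to 2.95) and was higher in 9 libraries. GRE12, at chr15:52005640-52005939 and 14.0 kb from Rad21, had 2.70 (2.07 to 3.56), with 1.46 in set 1 and 5.07 in set 2. GRE44, intergenic at chr3:150792256-150792555, had 2.14 (1.85 to 2.48), higher in 6 libraries and lower in 4, and 1 nucleus held 18.5% of its 685 UMIs.

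The GRE19 ratio depended on 1 library. GRE19 had 204 UMIs in Npy SST nuclei and 164 in non-Npy SST nuclei, a ratio of 0.981 (0.795 to 1.21), with 1.80 in set 1 and 0.582 in set 2. A single non-Npy SST nucleus held 39.0% of the 164, and without the nucleus with the most UMIs in each group the ratio was 1.25. Without the second library of set 2 it was 2.02, and the other 4 then lay between 2.42 and 3.96. As a share of viral UMIs rather than per nucleus, the ratios were 0.969 for GRE80, 1.12 for GRE22, 0.967 for GRE44, 1.22 for GRE12 and 0.444 for GRE19. Of the 3 highest elements, GRE191 had 33 UMIs against 0 (at least 8.68-fold), GRE8 31 against 0 (at least 8.15-fold, with 64.5% in 1 nucleus) and GRE70 46 against 1. The 3 lowest were GRE40 with 3 against 28, of which 89.3% lay in 1 nucleus, GRE214 with 11 against 71 and GRE229 with 12 against 40.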

How the data were processed

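The authors prepared nuclei of injected visual cortex, ran inDrops, enriched viral transcripts by PCR, and assigned reads with the inDrops pipeline to GRCm38 with a contig for each viral barcode. Values as deposited are raw counts of UMIs in each nucleus, for 25871 genes and 1164 viral barcodes, of which 861 belong to GREs. The paper speaks of 2 animals with 5 libraries each, but the labels name no animal, so the sets carry no such name here. Per the labels, Subread 1.4.6-p3 and Trimmomatic 0.33 are among the tools named. The 6 ATAC samples were not used here. Levels were summed over nuclei with pandas 2.3.3, numpy 2.4.6 and scipy 1.17.1, and the scripts were tested on simulated data. Sst, Npy, Vip and Slc17a7 were left out of calls. Named genes were members of fixed gene lists, the 15 highest and 15 lowest called ratios within the SST class, the 15 highest called ratios against other nuclei, the 5 hit GREs, and the 3 highest and 3 lowest GREs. The members of this population and the lists were chosen with earlier results of these data known. UMIs of 1 nucleus are not independent, and intervals cover counting error only. Some genes that the rule allows are not reported here.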

Additional observations from a re-analysis of the deposited data

Results flagged for a closer look

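Each value below is the library farthest from the other 9 in a group of 10, by the gap to its neighbour relative to the whole range. Of 60 quantities looked at, 12 had such a library. The rule was set for a chance of about 1 in 20, but many of the quantities are sparse counts. Whether that rate holds for them was not tested, so the 12 are no evidence of an excess. In non-Npy SST nuclei, the second library of set 2 had a mean of 78.4 viral UMIs, with the next at 39.6, and 4.33 GRE19 UMIs per nucleus, with the next at 0.833. In the same nuclei Crhbp stood at 4.27 per 10000 in the first library of set 2 (next 1.53), Pcdh18 at 2.15 in the fourth (next 0.846) and Fibcd1 at 0.807 in the third (next 0.374). Fam150b was at 0.694 per 10000 in the third library of set 1 and at 0 in the other 9. Nov at 8.52 (next 1.04) and Gja1 at 6.94 (next 1.71) stood out in the first library of set 1, and Apoe at 11.9 (next 2.45) in the fifth. In Npy SST nuclei, Nr2f2 was at 0.812 in the second library of set 1 (next 0.407), Nov at 0.623 in the fifth (next 0.271), and GRE19 at 1.60 UMIs per nucleus in the third (next 0.852). The 303 viral barcodes that belong to no GRE, which enter no comparison of GREs, had 366 UMIs in Npy SST nuclei, 115 in non-Npy SST nuclei and 5425 in others. The cause of these values was not tested.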

How the results depend on the processing

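No paired analysis was possible because the result comes from no test, all nuclei being of 1 sample. Calls within the SST class (119 higher, 147 lower) numbered 352 and 398 with a minimum of 15 UMIs, 28 and 31 with 60, 453 and 573 at 1.5-fold, 211 and 222 with equal weight per nucleus, and 59 and 53 when thinned; Sst of at least 10 gave 192 higher. Against others (233 and 475) they were 380 and 819 with 15 UMIs, 142 and 227 with 60, 507 and 873 at 1.5-fold, 140 and 223 in set 1 (230 nuclei) and 152 and 266 in set 2 (187 nuclei). The viral ratios (2.21 to non-Npy SST, 4.20 to others) were 2.00 and 3.62 with over 500 UMIs kept, 2.02 and 4.48 with Sst of at least 5, 2.55 and 4.83 with Npy of at least 2, 1.96 and 4.71 with Sst of at least 10, 2.40 and 6 by medians, 1.72 and 3.20 per 1000 UMIs, and 2.27 and 4.07 without the top nucleus. To non-Npy SST nuclei it was 1.66 thinned and 2.14 without repeated barcodes; to others 3.53 in set 1, 5.21 in set 2 and 4.03 without glial nuclei. For GREs, over 500 UMIs gave GRE80 1.79 and all GREs 2.00. Sst of at least 5 gave GRE19 0.720, GRE44 2.60 and all 2.01. Npy of at least 2 gave GRE12 3.61, GRE19 1.22, GRE44 2.49, GRE80 2.53 and all 2.55. Set 1 gave GRE12 1.46, GRE19 1.80, GRE22 3.97 and GRE80 1.66, and set 2 gave 5.07, 0.582, 1.78 and 3.02. Shares of viral UMIs gave GRE12 1.22, GRE19 0.444, GRE22 1.12 and, turned below 1, GRE44 0.967, GRE80 0.969 and all 0.998. Shares of nuclei gave GRE19 1.29, GRE22 1.91, GRE44 1.73, GRE80 1.80 and all 1.04. Without the top nucleus GRE19 was 1.25 and all 2.27, without repeated barcodes all were 2.14, with Sst of at least 10 GRE19 was 0.587, GRE44 3.29 and all 1.96, and without glial nuclei GRE19 was 1.26. Leaving out 1 library at a time gave 363 to 393 nuclei, 103 to 127 and 133 to 152 calls, 211 to 222 and 416 to 444 against others, viral ratios of 2.07 to 2.49 and 3.94 to 4.51, GRE12 2.10 to 3.96, GRE19 0.690 to 2.02, GRE22 2.04 to 2.73, GRE44 1.66 to 2.84, GRE80 1.90 to 2.48 and all 2.07 to 2.48. For 57 genes under 26 settings, 1394 of 1472 ratios stayed within the counting interval. The minimums of 15 and 60 UMIs and the 1.5-fold setting change only the calls. All 57 ratios under each of these settings therefore stayed by construction. Of the 1472 ratios, 9 lay on the other side of 1. Of these 4 were of called genes: Ctdsp2 0.980 and Arpp21 1.05 when thinned, Slc26a2 1.29 and Ptgds 1.77 with Sst of at least 10. The others were Gad1 at 0.968 with Sst of at least 10, Elfn1 at 0.982 with equal weight, and Pdyn at 1.01 without the fifth library of set 2, 1.12 in set 1 and 1.02 without repeated barcodes. Repeated barcodes, Sst of at least 10, glial nuclei and the thinned viral ratio were chosen after the data were seen, and causes were not tested.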
